A study of Mus musculus with 4 samples.

Results

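Prox1, Lyve1, Pdpn, Ccl21a and Mmrn1 are marker genes of lymphatic endothelial cells, and their transcripts were followed in single-nucleus RNA-seq of the mouse brain after intrathecal delivery of vascular endothelial growth factor C (VEGF-C). These 5 genes of the 31053 in the deposited matrices were taken as a fixed list of known markers. Each was matched by 1 Ensembl identifier, whose coordinates on the mouse genome (GRCm38) are: Prox1 (ENSMUSG00000010175) at chr1:190118035-190170714, Lyve1 (ENSMUSG00000030787) at chr7:110850607-110863239, Pdpn (ENSMUSG00000028583) at chr4:143267431-143299564 and Ccl21a (ENSMUSG00000094686) at chr4:42772860-42773993, these 4 on the minus strand, and Mmrn1 (ENSMUSG00000054641) at chr6:60924976-60989378 on the plus strand. The questions were whether any nucleus carried 3 or more of these genes, and which other brain cells carried each gene.

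Lymphatic vessels drain fluid and immune cells from the dura mater, the nasal mucosa and the neck, whereas the brain parenchyma itself holds no lymphatic vessels. VEGF-C drives the growth of lymphatic endothelium through its receptor VEGFR-3, the product of Flt4. No single marker is particular to this endothelium: Prox1, the transcription factor that sets lymphatic identity, is also made by granule neurons of the dentate gyrus and by oligodendrocytes, Lyve1, a hyaluronan receptor, by perivascular and meningeal macrophages, and Pdpn, a mucin-type membrane protein, by astrocytes, fibroblasts and epithelia. Ccl21a encodes the chemokine that calls dendritic cells into lymphatic vessels, and Mmrn1 encodes multimerin 1, a secreted protein stored in platelets and endothelium.

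Nuclei came from male C57BL/6J mice, 8 weeks old, injected in the cisterna magna with adeno-associated virus (AAV) of serotype 9. AAV-VEGF-C carried mouse VEGF-C, and AAV-CTRL carried a soluble fragment of VEGFR-3 (domains 4 to 7 fused to an immunoglobulin tail) that does not bind VEGF-C, so both groups received a virus and a secreted protein. Tissue of 5 mice with the same AAV was combined for nuclei isolation, and 1 library was made for each region label and AAV label. The 4 libraries are given in a fixed order throughout: the cortex pair before the striatum pair and, within each pair, AAV-CTRL before AAV-VEGF-C. With 1 library per group there was no replicate and no test between groups: every interval given here is a 95% interval of counting error alone (exact Poisson for a level, exact Clopper-Pearson for a share, conditional binomial for a ratio), and mouse-to-mouse spread cannot be told from the pooled libraries.

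The matrices held 17168, 20370, 23724 and 17466 nuclei in that order, with 63165470 to 78332657 unique molecular identifiers (UMIs, each counting 1 captured transcript). After called doublets and doublet-rich clusters were left out, 73037 nuclei remained, with a median of 2128.5 to 2657.5 UMIs per library. The region labels were not borne out by region genes: Ppp1r1b, a marker of striatal projection neurons, had a level of 63.2 and 75.8 CPM (UMIs of the gene per 1000000 UMIs) in the cortex libraries and 18.8 and 18.5 in the striatum libraries, so region names here are labels. Nuclei of bone, namely osteoblasts or osteocytes, numbered 116 in striatum AAV-CTRL and 4, 7 and 3 in the other libraries in order, and sustentacular nuclei of the olfactory epithelium numbered 228 against 31, 1 and 8. Of the barcode sequences, 598 occurred in more than 1 library. Clusters were built without the 5 genes, and no cluster carried the name lymphatic endothelial.

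Prox1 was by far the most abundant of the 5 genes and Ccl21a the least. Over all libraries, 11560 Prox1 UMIs were counted in 8350 nuclei and 1954 Pdpn UMIs in 1650 nuclei. Lyve1, Mmrn1 and Ccl21a gave 142, 86 and 55 UMIs in 114, 63 and 45 nuclei. The 3 rarer genes were thus seen in well under 1 nucleus in 100, and their levels rest on small counts. The plot of levels by library shows the 4 libraries side by side for each gene.

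**Figure D1:**
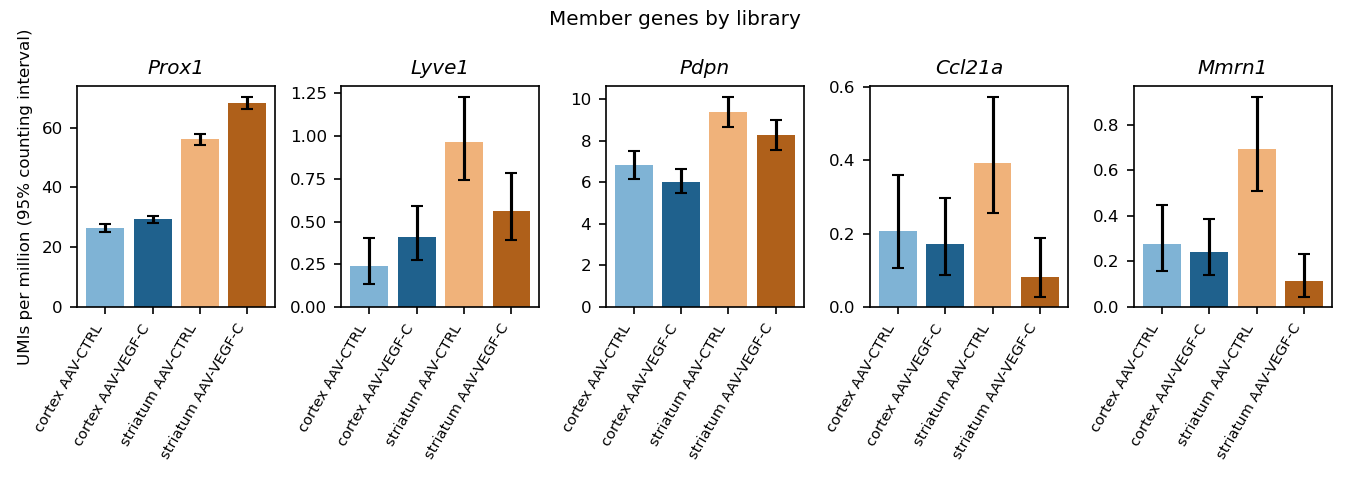
Level of each gene in each library, in CPM of the kept nuclei (vertical axis, a separate linear scale from 0 for each gene); bars are single libraries and error bars are exact 95% Poisson intervals. Prox1 rises from 26.4 in cortex AAV-CTRL to 68.4 in striatum AAV-VEGF-C, while Lyve1, Ccl21a and Mmrn1 are highest in striatum AAV-CTRL, at 0.965, 0.392 and 0.694.

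The first question was co-expression. Of 73037 nuclei, 63053 had no UMI of any of the 5 genes, 9758 had 1 gene, 215 had 2, 10 had 3 and 1 had 4. The nuclei with 3 or more numbered 1 of 16233 in cortex AAV-CTRL (0.00616%, interval 0.000156 to 0.0343), 0 of 18962 in cortex AAV-VEGF-C (a limit of 0.0158% at 3 counts of the total, interval up to 0.0195), 5 of 21380 in striatum AAV-CTRL (0.0234%, interval 0.00759 to 0.0546) and 5 of 16462 in striatum AAV-VEGF-C (0.0304%, interval 0.00986 to 0.0709). The intervals of the 4 libraries overlapped. The 11 nuclei fell into 7 classes, and none carried all 5 genes.

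Depth set these 11 nuclei apart from one another. Of the 5 in striatum AAV-VEGF-C, 4 held 24321, 26352, 44834 and 63474 UMIs, and in striatum AAV-CTRL 2 held 19453 and 38571 UMIs, against library medians of 2545 and 2128.5. None of these 6 was called a doublet, with doublet scores of 0.0356 to 0.137. Leaving out nuclei of 10000 UMIs or more left 1, 0, 3 and 1 nuclei with 3 or more of the genes, in library order.

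Among the deep nuclei, both in the endothelial class of striatum AAV-VEGF-C (44834 and 63474 UMIs) carried UMIs of 10 of 10 pan-endothelial genes and no Stab2. They belonged to a cluster of endothelial nuclei led by Lcn2, Ch25h and Gm5127. The nucleus of 44834 UMIs had 1 Prox1, 5 Pdpn and 1 Ccl21a UMI, and that of 63474 UMIs had 2 Lyve1, 2 Pdpn and 1 Mmrn1 UMI. The other deep nuclei were classed as smooth muscle, fibroblast, ependymal and osteoblast or osteocyte. The osteoblast or osteocyte nucleus of 19453 UMIs had 1 Pdpn, 3 Ccl21a and 2 Mmrn1 UMIs beside 119 UMIs of the collagen gene Col1a1. In the ependymal nucleus of 38571 UMIs, 7 Prox1, 2 Pdpn and 1 Mmrn1 UMI stood beside 119 UMIs of the ciliary gene Dnah12.

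Of the 5 shallower nuclei, 3 came from striatum AAV-CTRL and shared Prox1, Ccl21a and Mmrn1. The first, of 1206 UMIs, had 3 Prox1, 3 Ccl21a and 1 Mmrn1 UMI, with 4 UMIs of Stab2, a scavenger receptor of lymphatic and sinusoidal endothelium, 3 of Nrp2, a co-receptor for VEGF-C, and 1 each of the endothelial junction genes Cldn5, Pecam1 and Cdh5. The second, of 1539 UMIs, had 2 UMIs each of Prox1, Ccl21a and Mmrn1, with 2 of Reln, 1 of Stab2, 1 of Flt4, 3 of Nrp2 and 1 each of Cldn5, Pecam1 and Cdh5. Both were in an endothelial cluster led by Cytl1, Eln and Bmx. The third, of 2831 UMIs, held 4 of the 5 genes, with 1 Prox1, 1 Pdpn, 2 Ccl21a and 5 Mmrn1 UMIs, beside 6 of Stab2, 3 of Reln, 2 of Cldn5 and 1 of Cdh5. It was clustered with the osteoblasts or osteocytes, although it had 1 Col1a1 UMI.

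The other 2 shallower nuclei carried no pan-endothelial UMI. In cortex AAV-CTRL, an arachnoid barrier nucleus of 1706 UMIs had 1 UMI each of Prox1, Lyve1 and Pdpn. In striatum AAV-VEGF-C, a microglial nucleus of 2744 UMIs had 1 UMI each of Prox1, Pdpn and Mmrn1, and 2 of P2ry12, a microglial receptor.

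**Figure D2:**
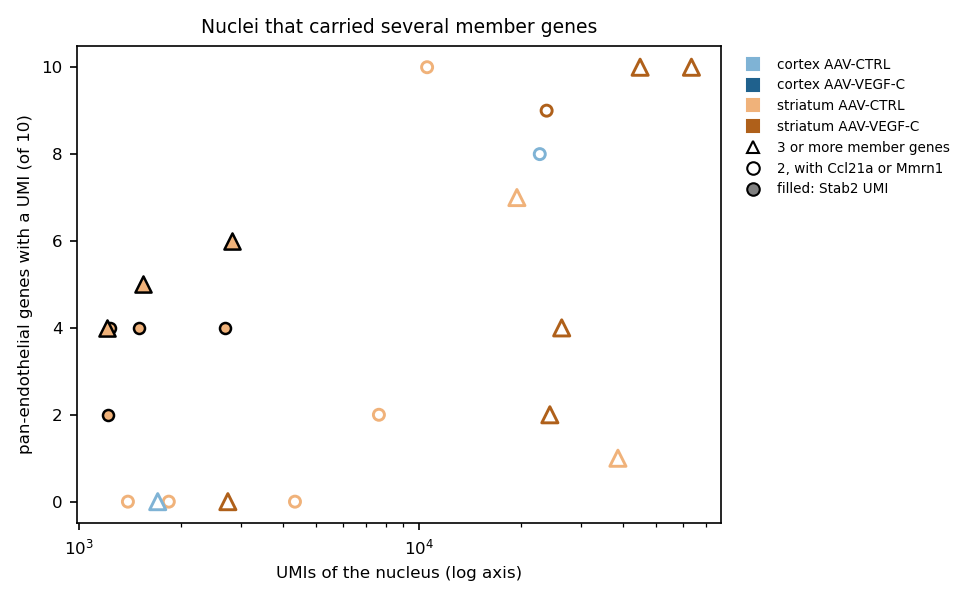
Kept nuclei with 3 or more of the genes (triangles) and with 2 that include Ccl21a or Mmrn1 (circles), by UMIs of the nucleus (horizontal, log axis) and number of 10 pan-endothelial genes with a UMI (vertical); colour gives the library and a filled symbol a nucleus with a Stab2 UMI. The 7 filled symbols, all from striatum AAV-CTRL, lie between 1206 and 2831 UMIs with 2 to 6 pan-endothelial genes.

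The pattern of these 3 striatum AAV-CTRL nuclei was then followed in nuclei with at least 2 of Prox1, Ccl21a and Mmrn1, a set chosen after these values were seen and given as a description. There were 0, 0, 11 and 2 such nuclei in library order. With nuclei of 10000 UMIs or more left out, 9 remained in striatum AAV-CTRL and 1 in striatum AAV-VEGF-C. A Stab2 UMI together with at least 2 pan-endothelial genes was found in 7 of these 9 and not in the 1. Stab2 itself was present in all libraries, in 94, 118, 151 and 123 nuclei. Thus the 7 nuclei came from the single library that also held most of the bone and olfactory nuclei.

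These 7 nuclei lay between 1206 and 2831 UMIs (median 1498). Prox1 was present in 6, Mmrn1 in 6, Ccl21a in 5, Pdpn in 1 and Lyve1 in 0. Of the fixed list of other lymphatic endothelial genes, those seen most often beside Stab2 were Nrp2 (in 6), Reln (5), Stab1 (5), Maf (5) and Flt4 (4). The others were in fewer. Ackr4, Clca3a1, Sox18, Foxc2, Ptpn14, Nts, Hoxd8, Ccl21b, Ccl19, Vegfc and Vegfd had no UMI in the 7. Of the pan-endothelial list, Kdr was present in 6, Cdh5 in 5, Pecam1 in 5 and Cldn5 in 4. Ptprb, Emcn, Egfl7, Tie1 and Erg were in fewer. The rule that picked the 7 used Prox1, Ccl21a, Mmrn1, Stab2 and the pan-endothelial list. Counts of these genes thus follow in part from it and are no separate evidence of what the nuclei are. Flt1, the VEGFR-1 gene of blood endothelium, was present in 0 of the 7. It was present in 637 of 690 endothelial nuclei of that library with 1000 to 3000 UMIs (92.3%, interval 90.1 to 94.2). Of the 7, 3 were in the endothelial class and were left out of the 690. Flt1 was among the markers that named this class, so its high share there follows in part from the naming. A Reln UMI was found in 18 of those 690 (2.61%, interval 1.55 to 4.09). Cldn5 was in 85.4% of the 690, Pecam1 in 46.1%, Kdr in 30.7%, Cdh5 in 30.1% and Flt4 in 7.97%. Ptprb was in 67.2% of them, Egfl7 in 52.6%, Emcn in 36.2%, Tie1 in 26.8% and Erg in 20.3%. The leukocyte gene Ptprc had no UMI in the 7, while Mrc1, a gene of the fixed macrophage list, had 9 UMIs in 4 of the 7. They were split by the clustering among the endothelial, osteoblast or osteocyte, fibroblast and cerebellar granule classes and a cluster left unnamed.

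The 7 nuclei held 10 of the 26 Ccl21a UMIs of striatum AAV-CTRL (38.5%) and 18 of its 46 Mmrn1 UMIs (39.1%). They held 12 of 3724 Prox1 UMIs (0.322%) and 0 of 64 Lyve1 UMIs. Most of the signal of each gene therefore lay in other cells, which are described gene by gene. Levels by class are in CPM of the UMIs of that class, in classes of at least 50 nuclei, and the share of nuclei with a UMI is set beside the share in a class that should lack the gene: microglia for Prox1, and oligodendrocytes for the other 4.

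**Figure D3:**
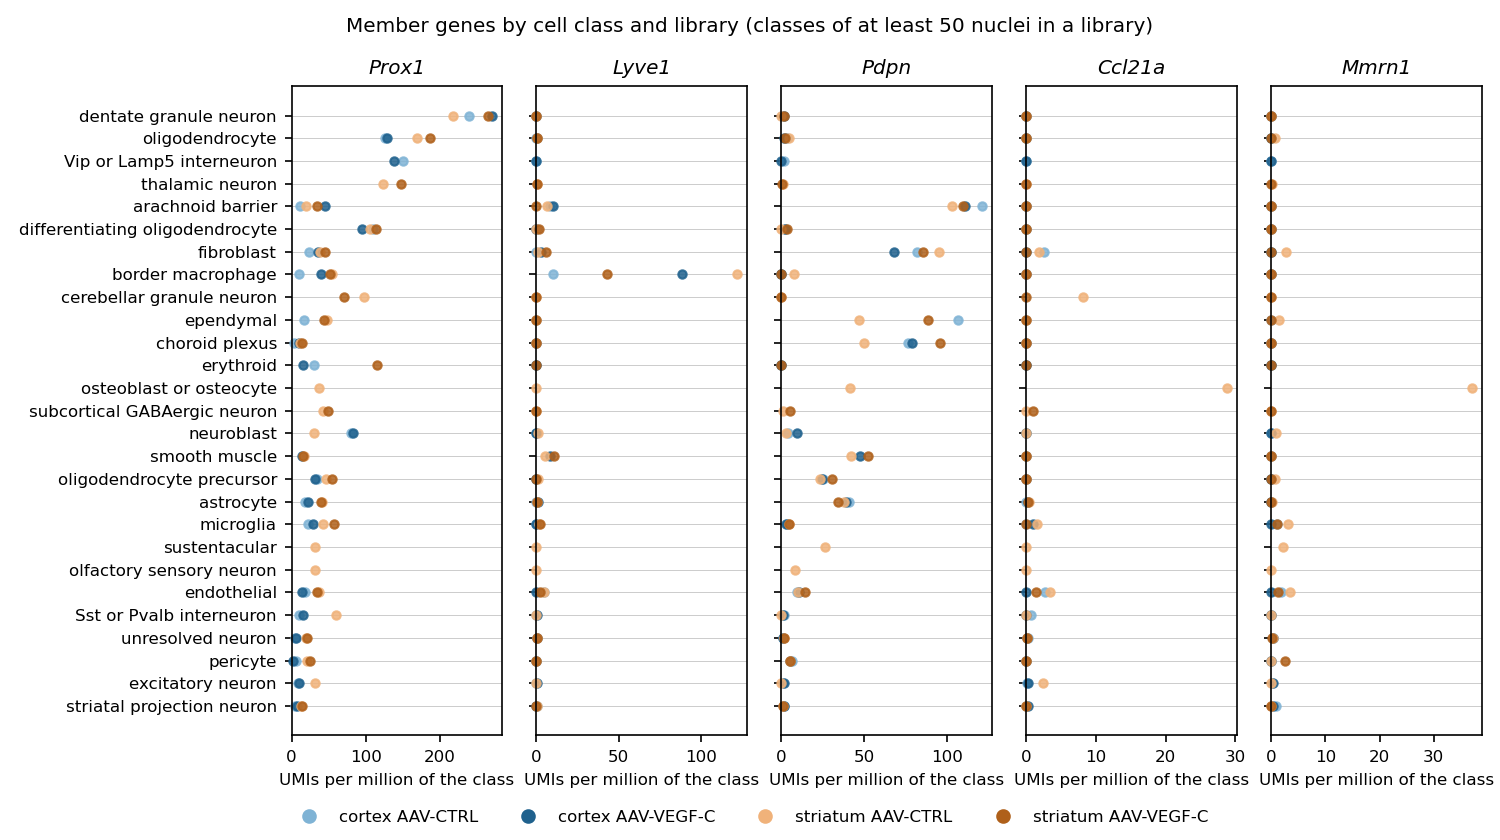
Level of each gene (horizontal axes, CPM of the UMIs of the class, linear) in each cell class (rows) with at least 50 nuclei in a library; each point is 1 library, coloured by label. Prox1 is highest in dentate granule neurons, at 218 to 271, Lyve1 stands out in border macrophages, at 10.2 to 122, and Pdpn in arachnoid barrier cells, at 103 to 121, while Ccl21a and Mmrn1 are highest in osteoblasts or osteocytes of striatum AAV-CTRL.

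Prox1 was carried by neurons and by the oligodendrocyte lineage. Dentate granule neurons had 240, 271, 218 and 265 CPM in library order. Over all libraries 858 of 1429 of these nuclei had a Prox1 UMI, against 5.55% of microglia, at median depths of 4041 and 1484 UMIs. After each nucleus was thinned to 1000 UMIs, the shares were 23.2% and 3.84%. The intervals of the dentate level overlapped except those of striatum AAV-CTRL (191 to 247) and cortex AAV-VEGF-C (250.4 to 292).

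Mature oligodendrocytes, the myelin-forming cells, had 126, 129, 169 and 187 CPM of Prox1 and held 26.6% of all Prox1 UMIs. Differentiating oligodendrocytes had 106 over all libraries (interval 92.6 to 122) and their precursors 42.6 (37.0 to 48.9). Over all libraries the intervals of precursors, differentiating and mature cells did not overlap. Within a library, differentiating cells had 110 (80.6 to 147) and 95.3 (70.5 to 126) in the cortex libraries, which overlapped the intervals of mature cells (113 to 140 and 117 to 142). In the striatum libraries they had 106 (78.7 to 139) and 114 (88.3 to 145), below mature cells (158 to 179 and 176 to 197). The precursors had 34.1, 32.0, 46.4 and 55.2 in library order, below the differentiating cells of the same library by their intervals. The precursors' thinned share of 3.89% was near that of microglia. Of interneurons, those of the Vip or Lamp5 class had 150 in cortex AAV-CTRL and 138 in cortex AAV-VEGF-C, against 15.8 over all libraries in the Sst or Pvalb class. Thalamic neurons had 124 and 147 in the 2 striatum libraries, and there were too few of them for a level in the cortex libraries.

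The share of nuclei with a Prox1 UMI lay above that of microglia of the same library, with intervals that did not overlap, in all 4 libraries for dentate granule neurons, oligodendrocytes and differentiating oligodendrocytes, in 2 of 2 for thalamic neurons, for Vip or Lamp5 interneurons and for subcortical GABAergic neurons, and in 2 of 3 for neuroblasts. Sst or Pvalb interneurons and ependymal cells lay above it in 1 of 3 libraries each. In thinned nuclei the calls for neuroblasts, subcortical GABAergic neurons, Sst or Pvalb interneurons and ependymal cells were lost, and differentiating oligodendrocytes kept theirs in the 2 cortex libraries. Striatal projection neurons had 7.63 and choroid plexus cells 9.71 CPM, below microglia at 36.6. Endothelial nuclei had 27.7, also below microglia, so Prox1 in the endothelial class as a whole was not detectable above background.

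Between libraries, Prox1 was at 26.4 CPM in cortex AAV-CTRL, 29.3 in cortex AAV-VEGF-C, 56.1 in striatum AAV-CTRL and 68.4 in striatum AAV-VEGF-C, and no 2 intervals overlapped. The log2 ratio of striatum over cortex was 1.09 (1.00 to 1.18) under AAV-CTRL and 1.22 (1.15 to 1.30) under AAV-VEGF-C. Across all genes with at least 20 UMIs in a pair, 14.6% and 15% differed at least 2-fold either way between region labels, and the median gene had a log2 ratio of 0.19 and 0.20. Prox1 and Lyve1 passed 2-fold under AAV-CTRL together with Mmrn1 (3 of the 5 genes). Under AAV-VEGF-C, Prox1, Ccl21a and Mmrn1 did, the last pair in the opposite direction and with intervals that included 0. Ccl21a had 12 and 5 UMIs in that comparison, below the minimum of 20 behind the share of all genes. With all barcodes the log2 ratios of Ccl21a and Mmrn1 were -0.91 and -0.29, short of 2-fold. Thalamic neurons made up 4.95% and 6.14% of nuclei in the striatum libraries and 0.0123% and 0.121% in the cortex libraries, and oligodendrocytes 16.7% and 19.4% against 10.3% and 10.2%. Fewer nuclei of a class and less RNA per nucleus cannot be told apart in such library sums.

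Within classes the region difference of Prox1 was also present. Of 16 classes, unnamed and unresolved nuclei included, with at least 20 Prox1 UMIs over the pair, 11 were higher in striatum AAV-CTRL than in cortex AAV-CTRL by their interval and 1, neuroblasts, was lower. Under AAV-VEGF-C, 9 of 13 were higher. Oligodendrocytes differed by a log2 ratio of 0.42 (0.24 to 0.59) and 0.53 (0.37 to 0.69), although cluster 5 held most of them in the cortex libraries (1585 and 1832 nuclei) and cluster 1 in the striatum libraries (3134 and 2885). Microglia, which should lack the gene and were likewise split between clusters, were also higher in the striatum libraries, from 22.8 to 42.1 and from 28.7 to 57.9 CPM, and their share with a UMI was 3.42%, 4.13%, 5.99% and 10.1% in library order. The part of this background in the difference was not tested.

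AAV-VEGF-C libraries had more Prox1 than AAV-CTRL libraries, by a log2 ratio of 0.15 (0.06 to 0.25) in cortex and 0.28 (0.22 to 0.35) in striatum. In nuclei thinned to 1000 UMIs the ratio in cortex was 0.09 (-0.07 to 0.25). At least 2-fold differences between AAV labels were found for 1.19% of genes in cortex and 2.62% in striatum, and Prox1 was not among them. An interval above 0, as Prox1 had, was found for 13.7% of genes in cortex and 19.3% in striatum. Within classes of at least 20 Prox1 UMIs over the pair, 2 of 14 were higher in cortex by their interval and 0 lower, namely dentate granule neurons (0.17, 0.0022 to 0.35) and the unresolved neurons (0.46, 0.07 to 0.85). In striatum 4 of 18 were higher and 0 lower: thalamic neurons (124 to 147 CPM, log2 ratio 0.25, 0.13 to 0.37), oligodendrocytes (0.15, 0.03 to 0.27), dentate granule neurons (0.28, 0.0029 to 0.57) and the unnamed nuclei (0.32, 0.03 to 0.60). In microglia, the background, the values were 42.1 and 57.9 (log2 ratio 0.46, -0.25 to 1.19), and their part in these differences was not tested.

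Lyve1 had its highest level in border macrophages. This class was named for perivascular and meningeal macrophages, and its leading genes included Mrc1 and F13a1. Ccr2 and H2-Ab1 were also among its leading genes, so it may not be a single macrophage type. Border macrophages had 80.9 CPM of Lyve1 over all libraries (interval 59.6 to 107) and held 33.8% of all Lyve1 UMIs in 398 of 73037 nuclei. A Lyve1 UMI was found in 30 of the 398 (7.54%), against 4 of 10381 oligodendrocytes (0.0385%), at median depths of 1419.5 and 1740 UMIs. Smooth muscle cells followed with 8.08 (4.18 to 14.1) and arachnoid barrier cells with 5.51 (2.21 to 11.3). Microglia had 0.846 (0.174 to 2.47), and the endothelial class 2.89 (1.65 to 4.70) from 16 UMIs in 12 of 2939 nuclei. The share with a Lyve1 UMI lay above that of oligodendrocytes of the same library in 3 of 4 libraries for border macrophages and for arachnoid barrier cells, in 3 of 3 for smooth muscle and in 1 of 4 for endothelium. In cortex AAV-CTRL border macrophages had 1 Lyve1 UMI, and arachnoid barrier cells were the class above background there. In thinned nuclei border macrophages kept their 3 calls, arachnoid barrier cells kept that of cortex AAV-CTRL, and those of smooth muscle and endothelium were lost.

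Among border macrophages, those with a Lyve1 UMI differed from those without in several genes of a fixed macrophage list. Of the 30 with Lyve1, 0 had H2-Ab1 and 1 had H2-Aa, which encode chains of MHC class II, against 23.6% (19.4 to 28.3) and 24.5% (20.2 to 29.2) of the 368 without Lyve1. The interval of 0 among 30 runs up to 11.6%. Cd74, the MHC class II invariant chain, was in 1 of 30 against 34.8% (29.9 to 39.9), and Ccr2, a receptor of monocytes, in 0 of 30 against 17.9% (14.2 to 22.2). In the other direction, Mrc1 was in 86.7% (69.3 to 96.2) against 54.6% (49.4 to 59.8), F13a1 in 90.0% (73.5 to 97.9) against 48.6% (43.4 to 53.9) and Stab1 in 86.7% (69.3 to 96.2) against 48.9% (43.7 to 54.1). Ms4a7 was in 53.3% (34.3 to 71.7) against 19.6% (15.6 to 24.0). The median depths of 1570 and 1413 UMIs were close. For Cd163, Pf4, Cbr2, Folr2, Cx3cr1, P2ry12 and Tmem119 the intervals overlapped. Nuclei of 1 library are not replicates, and these shares carry no test.

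**Figure D4:**
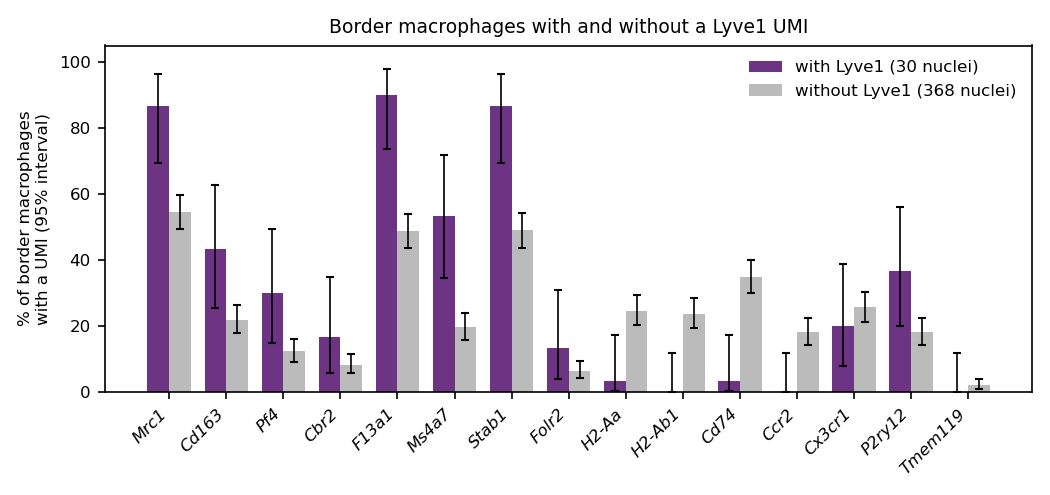
Share of border macrophage nuclei of all 4 libraries with a UMI of each gene of the fixed macrophage list (vertical axis, percent; error bars, exact 95% binomial intervals), for the 30 nuclei with a Lyve1 UMI and the 368 without. H2-Ab1 and Ccr2 are in 0 of 30 nuclei with Lyve1, and F13a1 is in 90.0% of them.

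Between libraries, Lyve1 was at 0.240 CPM in cortex AAV-CTRL, 0.412 in cortex AAV-VEGF-C, 0.965 in striatum AAV-CTRL and 0.565 in striatum AAV-VEGF-C, from 14, 29, 64 and 35 UMIs. The log2 ratio of AAV-VEGF-C over AAV-CTRL was 0.78 (-0.19 to 1.81) in cortex and -0.77 (-1.41 to -0.16) in striatum. Between region labels it was 2.00 (1.16 to 2.95) under AAV-CTRL and 0.45 (-0.30 to 1.22) under AAV-VEGF-C. Border macrophages made up 0.851% of nuclei in striatum AAV-CTRL, 0.425% in striatum AAV-VEGF-C, 0.400% in cortex AAV-CTRL and 0.427% in cortex AAV-VEGF-C. Within them the Lyve1 level was 10.2, 88.3, 122 and 42.6 CPM, from 1, 11, 31 and 5 UMIs. The highest level and the largest number of macrophages thus fell in striatum AAV-CTRL, although its interval (83.0 to 173) overlapped those of both AAV-VEGF-C libraries. The log2 ratio within macrophages was 3.11 (0.33 to 8.54) in cortex and -1.52 (-3.24 to -0.14) in striatum. The cortex pair lay below the minimum of 20 UMIs. Nuclei with a Lyve1 UMI numbered 1 of 65, 7 of 81, 18 of 182 and 4 of 70 in library order. The intervals of these shares overlapped within each pair of AAV labels. Over all border macrophages Mrc1 and F13a1 had 1639, 1285, 1764 and 1740 CPM and 1342, 1148, 1642 and 1535 CPM in library order. Pf4 had 41.0, 145, 114 and 68.2 and Cbr2 41.0, 80.3, 86.6 and 17.1, in the same directions between AAV labels as Lyve1. Cd74 (1137, 1630, 1469 and 1416) also lay in these directions. The other genes of the list did not, among them Cd163 (256, 145, 299 and 281) and Folr2 (41.0, 16.1, 66.9 and 59.7). The Pf4 and Cbr2 levels rest on 2 to 29 UMIs, and their intervals overlapped within each pair of AAV labels. The part of these genes in the Lyve1 difference was not tested.

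Pdpn was found in several classes, with the highest levels in cells of the brain borders and a lower level in astrocytes. Arachnoid barrier cells, the tight epithelial-like layer under the dura, had 121, 110, 103 and 109 CPM in library order, with overlapping intervals. Fibroblasts of the leptomeninges had 81.7, 67.7, 94.7 and 85.1, also with overlapping intervals. Over all libraries, ependymal cells had 75.1 (64.2 to 87.3), choroid plexus epithelium 72.8 (58.6 to 89.5) and smooth muscle 45.1 (34.98 to 57.3). Astrocytes were lower, at 37.7 (34.9 to 40.7), but as the largest of these classes they held 34.1% of all Pdpn UMIs. Oligodendrocyte precursors had 26.0 (21.6 to 30.9), against 3.05 (2.32 to 3.94) in oligodendrocytes.

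The share of nuclei with a Pdpn UMI lay above that of oligodendrocytes in all 4 libraries for arachnoid barrier cells, fibroblasts, choroid plexus, astrocytes and oligodendrocyte precursors, and in 3 of 3 for ependymal cells and smooth muscle. In striatum AAV-CTRL, the library with at least 50 nuclei of each, osteoblasts or osteocytes and sustentacular cells also lay above it. Over all libraries the former had 54.5 CPM (30.5 to 89.8), in 13 of 130 nuclei, and the latter 23.7 (12.6 to 40.5), in 10 of 268. Endothelium lay above it in 1 of 4 libraries and subcortical GABAergic neurons in 1 of 2, both in striatum AAV-VEGF-C and neither in thinned nuclei. The order of the classes at the top was not firm, since the intervals of arachnoid barrier cells (91.9 to 129) and fibroblasts (75.2 to 98.8) overlapped. Endothelial nuclei had 11.0 (8.44 to 14.2), and border macrophages 3.37 from 2 UMIs.

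Pdpn was close between AAV labels, with a log2 ratio of -0.18 (-0.38 to 0.02) in cortex and -0.18 (-0.35 to -0.0098) in striatum. It was higher in the striatum libraries, by 0.46 (0.27 to 0.64) under AAV-CTRL and 0.46 (0.27 to 0.64) under AAV-VEGF-C, the latter 0.16 (-0.17 to 0.49) in nuclei thinned to 1000 UMIs. Within classes, ependymal cells were the ones to differ between AAV labels by their interval, with 46.7 CPM in striatum AAV-CTRL and 88.5 in striatum AAV-VEGF-C (log2 ratio 0.92, 0.29 to 1.58), in 1 of 11 classes with at least 20 UMIs. These levels came from 33 UMIs in 28 of 179 nuclei and 60 UMIs in 30 of 96. In nuclei thinned to 1000 UMIs the shares with a Pdpn UMI were close, at 5.11% and 5.21%. In cortex AAV-CTRL the ependymal level was 107, higher than in striatum AAV-CTRL by its interval (log2 ratio of striatum over cortex -1.19, -1.87 to -0.54), and cortex AAV-VEGF-C held fewer than 50 ependymal nuclei.

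Prox1 and Pdpn were the pair seen together most often, in 185 nuclei. These were led by astrocytes (52), fibroblasts (21), oligodendrocytes (19) and ependymal cells (18), with 4 in the endothelial class. Of 13 classes with at least 20 Pdpn nuclei, the share with Prox1 was higher in nuclei with Pdpn than in those without by intervals that did not overlap in 2, and lower in 0. These were fibroblasts, with 13.0% (8.21 to 19.1) and 5.97% (4.61 to 7.58), at median depths of 2092.5 and 1655 UMIs, and astrocytes, with 8.48% (6.40 to 11.0) and 5.44% (4.97 to 5.95), at 2031 and 1841. In neither class did the share with a Prox1 UMI lie above that of microglia in any library. Prox1 there was thus not told from background, and the joint counts do not establish co-expression. Intervals overlapped in oligodendrocytes, with 32.8% (21.0 to 46.3) and 24.1% (23.3 to 24.9), and in their precursors, with 9.17% and 9.18%. Lyve1 and Pdpn were together in 11 nuclei, of which 6 were smooth muscle. Prox1 and Lyve1 were together in 22, of which 7 were thalamic neurons and 4 border macrophages. Lyve1 and Ccl21a, found in 114 and 45 nuclei, shared none.

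Ccl21a has near-identical copies on chromosome 4, so its counts depend on how reads were assigned. The annotation places Gm21541 at chr4:41903610-41904743, and over the 870 bases of the Ccl21a transcript Gm21541 differed at 6 positions (99.3% identity): G24A, T159A, C269T, C640T, T812C and G856A, with the Ccl21a base first, the position counted from 1 at the 5′ end of the Ccl21a transcript, and the Gm21541 base last. Within the last 400 bases, where 3′ reads fall, the copies differed at 3 positions, namely C640T, T812C and G856A. A read that covers no differing position cannot be assigned to 1 copy. The stretches around the coding differences are shown, with the differing base in capitals. These stretches lie outside the last 400 bases. The first lies in exon 2 at chr4:42773733-42773761 (Ccl21a, minus strand) and chr4:41903842-41903870 (Gm21541, plus strand), and the second crosses the junction of exons 2 and 3.
Ccl21a, T159A: agtgatggagggggTcaggactgctgcct
Gm21541, T159A: agtgatggagggggAcaggactgctgcct
Ccl21a, C269T: ggcaatcctgttctCaccccggaagcact
Gm21541, C269T: ggcaatcctgttctTaccccggaagcact
The files list 8 further rows of the Ccl21 family, among them a second row of the name Ccl21a (ENSMUSG00000095320) with 0 UMIs, and these held 3 UMIs in all, against 61 for Ccl21a over all barcodes. Cell Ranger, the authors' counting software, leaves out reads that map to several genes, so the Ccl21a level is uncertain.

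Ccl21a was at 0.206, 0.171, 0.392 and 0.0807 CPM, from 12, 12, 26 and 5 UMIs. It was highest in striatum AAV-CTRL, and the log2 ratio of AAV-VEGF-C over AAV-CTRL was -0.27 in cortex, with an interval that included 0, and -2.28 (-4.02 to -0.88) in striatum. Between region labels the intervals included 0. By class, osteoblasts or osteocytes led with 25.4 CPM (10.2 to 52.4), from 7 UMIs in 3 of 130 nuclei. All 3 were in striatum AAV-CTRL and also had Mmrn1. Of the 7 UMIs, 2 were in the nucleus with 4 of the genes and 3 in that of 19453 UMIs. Endothelial nuclei had 1.99 (0.993 to 3.56), from 11 UMIs in 6 of 2939. Excitatory neurons had 8 UMIs in 8 of 7691 nuclei and oligodendrocytes 0 of 10381. Of these 11 endothelial UMIs, 5 were in the 2 endothelial nuclei that also had Prox1 and Mmrn1.

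Mmrn1 was likewise highest in striatum AAV-CTRL and lowest in striatum AAV-VEGF-C, with 0.275, 0.242, 0.694 and 0.113 CPM, from 16, 17, 46 and 7 UMIs. Its log2 ratio of AAV-VEGF-C over AAV-CTRL was -0.19 (-1.26 to 0.89) in cortex and -2.62 (-4.01 to -1.46) in striatum. Between region labels it was 1.34 (0.49 to 2.26) under AAV-CTRL, which became 0.43 (-1.04 to 2.01) in thinned nuclei, and -1.10 (-2.61 to 0.25) under AAV-VEGF-C. Osteoblasts or osteocytes had 32.7 CPM (14.9 to 62.0), from 9 UMIs in 4 of 130 nuclei, of which 5 UMIs were in the nucleus with 4 of the genes. Endothelial nuclei had 1.81 (0.867 to 3.32) in 9 of 2939, and striatal projection neurons 0.496 (0.214 to 0.978) in 5 of 3359, against 0.210 (0.0573 to 0.539) in oligodendrocytes. The unresolved neurons held the most Mmrn1 UMIs, 25 (29.1%) in 19 of 17356 nuclei, at 0.261 (0.169 to 0.385). By share of nuclei, the class above oligodendrocytes was osteoblasts or osteocytes of striatum AAV-CTRL, and this call was lost in thinned nuclei.

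Ccl21a and Mmrn1 were among the genes past 2-fold between AAV labels in striatum, where 2.62% of 21203 genes passed, and they were the 2 of the 5 genes to do so. With the 7 nuclei left out, striatum AAV-CTRL kept 16 Ccl21a and 28 Mmrn1 UMIs (0.241 and 0.422 CPM), against 5 and 7 in striatum AAV-VEGF-C. With the osteoblast or osteocyte class left out, the log2 ratios were -1.83 and -2.31. Ccl21a and Mmrn1 shared 6 nuclei, and all 6 were in striatum AAV-CTRL.

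The genes most alike in pattern were ranked by Pearson correlation of log2(CPM + 1) over 85 sums of 27 classes by library, among 15252 genes with at least 500 UMIs. The points of 1 library share its depth and free RNA, and the values are a description. For Prox1 these were Prox1os (r = 0.79), the antisense gene whose annotation overlaps the start of Prox1, then St18 (0.66), Sema5a (0.63), 1810041L15Rik (0.62) and Lgi3 (0.61). For Lyve1 they were H2-Aa (0.79), Lyz2 (0.78), H2-Ab1 (0.78), Ms4a6c (0.78) and Mrc1 (0.78), all genes of myeloid cells, although within border macrophages H2-Aa and H2-Ab1 were rare in the nuclei with Lyve1. For Pdpn they were Mmp14 (0.83), Fzd2 (0.83), Gm14964 (0.83), Gpx8 (0.83) and Creb3l1 (0.82). For Ccl21a they were Svep1 (0.48), Gpx6 (0.44), Vmo1 (0.44), Psmb7 (0.43) and Col1a1 (0.42), and for Mmrn1 they were Cyp2g1 (0.58), Vmo1 (0.57), Cyp2a5 (0.57), Bpifb3 (0.54) and Sfrp2 (0.53). Among the 5 genes themselves, Ccl21a and Mmrn1 were alike (0.66), and the other 9 pairs lay between -0.27 and 0.15.

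None of the other lymphatic endothelial genes of the fixed list with at least 20 UMIs differed 2-fold between AAV labels. Of 26 such genes, 23 had at least 20 UMIs over the cortex pair, of which 3 were higher and 8 lower by their interval in AAV-VEGF-C, against 13.7% of all 20722 genes higher and 14.9% lower, with a median log2 ratio of -0.09 beside -0.0064. In striatum 24 had enough UMIs, and 4 were higher and 11 lower, against 19.3% of all 21203 genes in each direction, with a median of -0.20 beside 0.0024. The shares of all genes were not matched for abundance. These ratios are of sums over all cell classes. In striatum AAV-CTRL the 7 nuclei described above held 12 of 6910 Nrp2, 11 of 4658 Reln and 6 of 3396 Maf UMIs. They also held 8 of 643 Stab1, 7 of 270 Flt4 and 19 of 170 Stab2 UMIs, so other nuclei held most counts of these genes. Flt4 was at 3.76, 2.76, 4.07 and 3.55 CPM in library order, and it was found in 11.0%, 8.32%, 8.04% and 9.96% of endothelial nuclei. Stab2 was at 1.67, 1.75, 2.56 and 2.13. Of the 10 pan-endothelial genes, 8 were lower and 0 higher by their interval in cortex AAV-VEGF-C than in cortex AAV-CTRL (median log2 ratio -0.22), where endothelial nuclei made up 3.55% and 3.85% of nuclei. In striatum 3 were lower and 1 higher (median -0.055).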

How the data were processed

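Nuclei were profiled with 10x 3′ chemistry in 4 libraries, 1 per region and AAV label. The authors deposited UMI counts per gene and nucleus, made with Cell Ranger on mm10 (version 5.1.1 in the submitters' processing notes, 5.0.1 in the file headers), with 17168 to 23724 barcodes per library. Whether intronic reads were counted is not given in the sources used here. Doublets were called with Scrublet in scanpy 1.11.5, library by library, and left out with clusters in which at least 40% of nuclei were called, 5691 nuclei in all.

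After scaling each nucleus to 10000 and taking logs, 5000 variable genes without the 5 genes, 50 components and 15 neighbours were used for Leiden clustering (leidenalg 0.10.2, resolution 1.2, then 0.8 within the vascular, fibroblast and immune clusters). Classes were named from fixed markers; the scoring rule for names was set after the clusters had been seen. The 74 clusters include 5 left unnamed. The members and gene lists were chosen with earlier results of these data known.

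Levels are CPM of summed UMIs over kept nuclei, with exact 95% intervals (scipy 1.17.1) that cover counting error only. Named genes were the 5 members, the 5 genes most alike to each in pattern, and fixed lists of 26 other lymphatic, 10 pan-endothelial and macrophage genes. Background percentages count genes with at least 20 UMIs over a pair. No p-value was computed, since each group is 1 library. The scripts were tested on simulated data. Alternatives were all barcodes, thinning to 1000 UMIs, size factors, other UMI minimums, other clusterings, called doublets kept, Flt4 as an added gene and, added after the data were seen, leaving out nuclei of 10000 UMIs or more and the osteoblast or osteocyte class.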

Additional observations from a re-analysis of the deposited data

Results flagged for a closer look

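The log2 ratio of Lyve1 in border macrophages, AAV-VEGF-C over AAV-CTRL, was 3.11 in cortex (interval 0.33 to 8.54) and -1.52 in striatum (-3.24 to -0.14). The single libraries thus moved in opposite directions between region labels, from 1 to 11 UMIs in 65 and 81 nuclei and from 31 to 5 UMIs in 182 and 70 nuclei. The difference between the regions was not tested, since each group is 1 library.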

How the results depend on the processing

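No paired analysis was possible because the labels give no replicate numbers and each group is 1 library. No log2 ratio whose interval lay away from 0 changed sign under any alternative run. With all deposited barcodes, 44 of 44 values stayed within their counting error, with called doublets kept 14 of 14, with Flt4 added 4 of 4, and without osteoblasts or osteocytes 14 of 14.

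Thinning every nucleus to 1000 UMIs weights shallow nuclei more, and 23 of 58 values moved. Library levels in CPM, in library order, became 37.2, 39.6, 67.6 and 78.0 for Prox1 and 10.0, 8.71, 12.6 and 9.73 for Pdpn; Lyve1 in striatum AAV-CTRL became 1.31, Ccl21a there 0.603 and Mmrn1 in cortex AAV-CTRL 0.449. The log2 ratios became 0.21 for Prox1 between AAV labels in striatum, 0.86 and 0.98 for Prox1 between regions (AAV-CTRL, AAV-VEGF-C), -0.37 for Pdpn between AAV labels in striatum, 0.16 for Pdpn between regions under AAV-VEGF-C, -1.45 for Mmrn1 between AAV labels in cortex and 0.43 for Mmrn1 between regions under AAV-CTRL. Class levels became 257 and 324 for Prox1 in dentate granule neurons of striatum AAV-CTRL and AAV-VEGF-C, 40.0 for Lyve1 in border macrophages of cortex AAV-VEGF-C and 66.7 for Pdpn in arachnoid barrier cells of striatum AAV-CTRL. The share of nuclei with 3 or more genes became 0% in striatum AAV-VEGF-C.

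With median-of-ratios size factors, the ratio between regions became 0.91 and 1.03 for Prox1 (AAV-CTRL, AAV-VEGF-C) and 0.26 for Pdpn under AAV-VEGF-C. Counting a gene from 2 UMIs left shares of 0% in cortex AAV-CTRL, 0.00468% in striatum AAV-CTRL and 0% in striatum AAV-VEGF-C, and leaving out nuclei of 10000 UMIs or more left 0.00635% in striatum AAV-VEGF-C. With each library clustered on its own, Prox1 in dentate granule neurons of striatum AAV-VEGF-C was 137, and with the 5 genes used in clustering, Pdpn in arachnoid barrier cells of cortex AAV-CTRL was 69.8. With at least 1 UMI over the pair, genes past 2-fold numbered 3234 and 3761 between AAV labels (cortex, striatum) and 6694 and 6556 between regions (AAV-CTRL, AAV-VEGF-C). With at least 20 UMIs they numbered 246 of 20722, 556 of 21203, 3088 of 21106 and 3170 of 21077. The number of genes with at least 1 UMI is not given here, so the larger counts cannot be read as shares. The cause of these moves was not tested. Lyve1, Ccl21a and Mmrn1 rest on 5 to 64 UMIs per library, which limits their ratios, and co-detection in a nucleus depends on its depth.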
